A study of Mus musculus with 4 samples.

Results

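The comparison described here asks in which genes the effect of removing Ets2 from mammary fibroblasts depended on whether the neighbouring epithelium carried the PyMT oncogene. It uses 4 of the 4 arrays of the series, each with RNA of cultured mammary gland fibroblasts from FVB/N mice aged 9 weeks. All kept genes were compared, and the genes named here were picked by the size of their values, as members of gene lists or, where said, after their values were seen. Without the oncogene the genotypes were Ets2db/loxP (normal Ets2-present) and Fsp-cre;Ets2db/loxP (normal Ets2-null). With it they were PyMT;Ets2db/loxP (PyMT Ets2-present) and PyMT;Fsp-cre;Ets2db/loxP (PyMT Ets2-null), with 1 array each. All groups carried a conventional knockout allele, db, which targets the DNA-binding domain, and a conditional loxP allele, so the Ets2-present groups had 1 intact copy. Cre was driven by the promoter of fibroblast specific protein and was carried by the Ets2-null groups alone, so that an effect of Cre and of Ets2 loss cannot be told apart. PyMT was driven in the mammary epithelium and not in the cells measured. Whether RNA of several animals was pooled is not stated in the sources used here.

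Values are log2 levels, and the 4 levels of a gene are given in this order: normal fibroblasts with Ets2 and then without, PyMT fibroblasts with Ets2 and then without. The Ets2 difference is Ets2-null minus Ets2-present. The interaction is the Ets2 difference in PyMT fibroblasts minus that in normal fibroblasts, a log2 difference of 2 differences. A negative interaction means that the Ets2 difference was lower with the oncogene, and 2 on this scale is 4-fold. Of 12394 genes on the array, 8687 had a level of at least 4.63, the 40th percentile of the table, on some array and were kept. Since each group is 1 array, no value below carries an error or a p-value.

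Ets2 is a transcription factor of the ETS family that is activated through phosphorylation by the Ras and MAP kinase pathway. ETS factors often act beside AP-1, the Fos and Jun dimers, at promoters of secreted proteases. Fibroblasts of the tumor stroma secrete collagens, the metalloproteinases that cleave them, growth factors and chemokines that reach both the epithelium and the vessels.

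The 1 probe set for Ets2 gave levels of 11.86, 11.89, 11.21 and 11.22, with an interaction of -0.03. Whether it lies inside the deleted part of the gene is not given in the sources used here, so it does not check the deletion. Of 15 fibroblast markers 14 were kept, and Tcf21 was the one under the filter level. None of 11 lymphocyte markers was kept. Of the markers of endothelium 3 of 10, of epithelium 5 of 16 and of mast cells 3 of 10 were kept. Pecam1, Cdh5, Krt8, Cdh1, Kit and Fcer1a were among those under the level. Kept were Kdr, Eng and Tek of endothelium, Krt5, Krt14, Krt18, Krt19 and Epcam of epithelium, and Cma1, Hdc and Mcpt8 of mast cells. Among them were Krt18 (8.05, 6.72, 4.23, 4.49), Krt19 (4.98, 4.385, 7.36, 7.21) and Kdr (6.115, 6.80, 3.94, 4.35). Of 8 adipocyte markers 3 were kept, Lpl, Fabp4 (7.64, 6.82, 9.96, 9.995) and Pparg (4.84, 4.75, 7.80, 6.37). Macrophage markers were kept in 17 of 20, and their mean log2 level over the 20 was 5.23, 5.31, 6.15 and 5.49, highest on the PyMT Ets2-present array. In RNA of a whole culture, fewer cells of a type and less RNA per cell cannot be told apart. The PyMT Ets2-null array differed from the others in its low range, with a lower quartile of 3.66 against 3.43 to 3.47. It also had the highest 18S ribosomal RNA signal, at 13.53 against 12.47 to 12.56 for the middle control probe set. Over 64 control probe sets the median interaction was 0.37.

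The interaction was at least 4-fold lower in 202 kept genes, which is 2.33% of those compared, and at least 4-fold higher in 152, which is 1.75%, together 354 (4.08%). At 2-fold the counts were 969 lower (11.2%) and 886 higher (10.2%), together 1855 (21.4%). The counts given for each gene list are to be read beside these shares. Over all kept genes the median interaction was 0.04 with an SD of 0.90, and the middle of the distribution lay from -0.43 to 0.48. The 4-fold limit cut a continuous range: Ntsr2 at -2.001 and Mapt at 2.003 were just inside, Nrm at -1.997 and Iqcf3 at 1.999 just outside.

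The larger part of most of these interactions lay in the PyMT fibroblasts. Of the 202 lower genes, 151 had the larger Ets2 difference in PyMT and 51 in normal fibroblasts, with medians of -1.63 and 0.87 for the differences. Of the 152 higher genes the numbers were 114 and 38, with medians of 1.65 and -0.87. The Ets2 differences had opposite signs in 177 of the lower and 141 of the higher genes. Choosing genes by a large gap between the 2 differences favours opposite signs, so these counts follow in part from the choice. Over all kept genes, neither the share with opposite signs nor the share with the larger difference in PyMT was counted. The PyMT Ets2-null array, which enters every PyMT difference, also differed from the others in its low range.

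**Figure D1:**
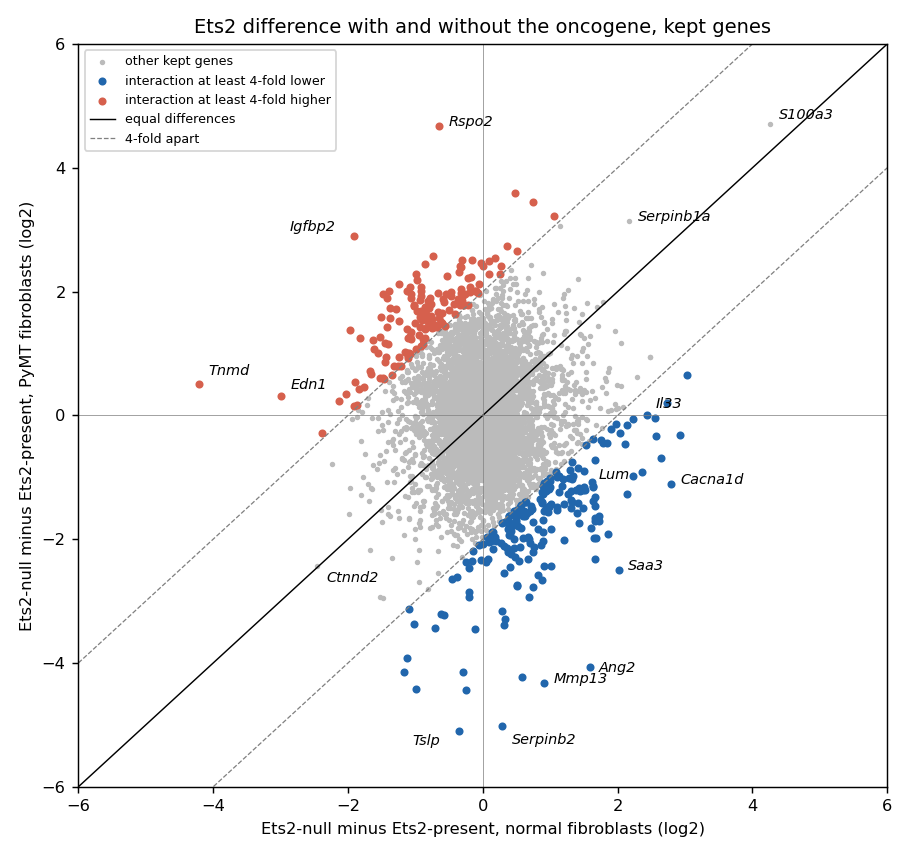
Each point is 1 of the 8687 kept genes, with the Ets2-null minus Ets2-present log2 difference in normal fibroblasts on the horizontal axis and in PyMT fibroblasts on the vertical axis. The solid line marks equal differences and the dashed lines a 4-fold interaction; 202 genes (blue) lie past the lower and 152 (red) past the upper dashed line, while S100a3, Serpinb1a and Ctnnd2 lie far from 0 near the solid line.

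To describe which array set a gene apart, the 4 levels were sorted and divided at the largest gap. Among the 202 lower genes, the PyMT Ets2-null array alone was low in 66 and the PyMT Ets2-present array alone was high in 51. The normal Ets2-null and PyMT Ets2-present arrays were high together in 48, and the normal Ets2-null array alone was high in 26. Among the 152 higher genes, the PyMT Ets2-null array alone was high in 58, the normal Ets2-present and PyMT Ets2-null arrays were high together in 50, and the PyMT Ets2-present array alone was low in 20. At least 1 array was under the filter level in 126 of the 202 genes and 108 of the 152. How often each array stands alone among the other kept genes was not counted.

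**Figure D2:**
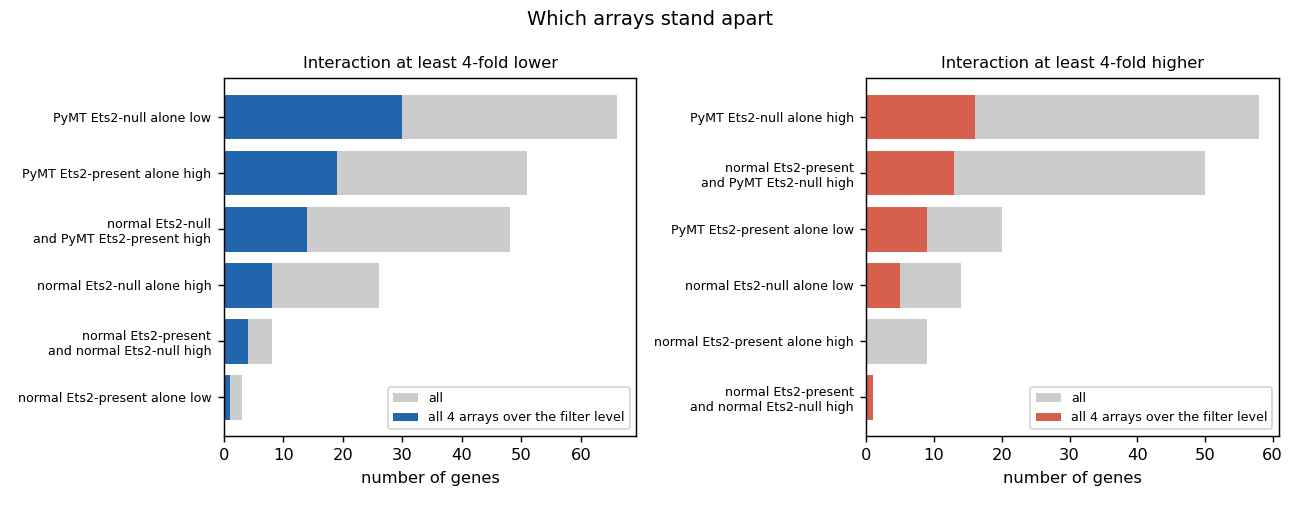
Bars give the number of genes with an interaction at least 4-fold lower (left) or higher (right), by the arrays that stand apart at the largest gap of the 4 levels; the coloured part counts genes with all 4 arrays over the filter level. The PyMT Ets2-null array stands alone most often on both sides, in 66 and 58 genes, of which 30 and 16 had all 4 arrays over the level. The patterns were not counted in the other kept genes.

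Interactions were wider among dim genes. In the dimmest of 5 equal bins of mean level the SD of the interaction was 1.30, with 101 genes at least 4-fold lower and 97 higher, and in the brightest bin it was 0.44, with 6 lower and 1 higher. When levels under the filter level were raised to it, 109 of the 202 and 64 of the 152 were still at least 4-fold.

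The proteases Mmp13 and Mmp10 and the protease inhibitor Serpinb2 were high on the PyMT Ets2-present array alone. Mmp13, a collagenase, had levels of 5.24, 6.16, 9.06 and 4.73. It was 20.1-fold lower without Ets2 in PyMT fibroblasts and 1.89-fold higher without Ets2 in normal fibroblasts, giving an interaction of -5.24. Mmp10 (stromelysin-2), which activates other metalloproteinases, had levels of 5.79, 6.11, 8.95 and 5.56 and an interaction of -3.71. In both genes the PyMT Ets2-present array was high and the other 3 lay together. Mmp3 (stromelysin-1) had levels of 8.10, 8.98, 9.54 and 6.87, with an interaction of -3.55. For this gene the PyMT Ets2-present array was highest and the PyMT Ets2-null array lowest, with the normal arrays between them. Serpinb2, an inhibitor of urokinase, had levels of 3.81, 4.10, 8.88 and 3.86, all but the PyMT Ets2-present array being under the filter level, and its interaction was -5.30, or -4.24 with low levels raised.

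The promoters of Mmp13, Mmp10 and Mmp3 were picked for display because AP-1 and ETS motifs in metalloproteinase promoters are textbook sites of the Ras pathway. That of the inhibitor Serpinb2 is shown beside them. Each run holds 250 bases before to 50 after the transcript start, 5′ to 3′ on the plus strand, from RefSeq on GRCm38.p6. Capitals mark TGANTCA, the AP-1 motif, which reads the same on the opposite strand, and AGGAAG, an ETS motif, searched on both strands. Mmp13 lies at chr9:7272264-7272563, Mmp10 at chr9:7502092-7502391, Mmp3 at chr9:7445572-7445871 and Serpinb2 at chr1:107511173-107511472.
Mmp13: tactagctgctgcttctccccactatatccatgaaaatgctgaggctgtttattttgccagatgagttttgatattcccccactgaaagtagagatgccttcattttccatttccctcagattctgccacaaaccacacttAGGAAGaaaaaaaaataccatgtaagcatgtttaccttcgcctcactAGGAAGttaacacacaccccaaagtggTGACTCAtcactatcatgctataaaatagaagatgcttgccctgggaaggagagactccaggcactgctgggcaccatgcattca
Mmp10: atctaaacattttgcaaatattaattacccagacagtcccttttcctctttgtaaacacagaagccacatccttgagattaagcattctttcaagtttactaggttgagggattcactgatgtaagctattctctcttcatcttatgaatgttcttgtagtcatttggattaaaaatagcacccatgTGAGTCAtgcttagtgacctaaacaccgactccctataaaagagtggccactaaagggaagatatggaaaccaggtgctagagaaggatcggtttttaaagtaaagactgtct
Mmp3: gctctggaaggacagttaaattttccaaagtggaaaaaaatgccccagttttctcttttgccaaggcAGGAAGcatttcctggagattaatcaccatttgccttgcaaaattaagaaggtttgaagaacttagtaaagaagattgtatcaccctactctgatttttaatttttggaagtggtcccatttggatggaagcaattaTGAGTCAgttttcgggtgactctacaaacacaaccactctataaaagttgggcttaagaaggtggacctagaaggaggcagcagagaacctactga
Serpinb2: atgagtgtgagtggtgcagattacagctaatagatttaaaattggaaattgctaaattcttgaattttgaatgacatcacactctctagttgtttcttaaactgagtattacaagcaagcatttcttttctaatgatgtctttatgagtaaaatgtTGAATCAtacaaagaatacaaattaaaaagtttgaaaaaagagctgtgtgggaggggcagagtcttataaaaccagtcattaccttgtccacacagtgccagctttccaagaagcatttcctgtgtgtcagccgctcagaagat
All 4 windows hold 1 AP-1 motif, starting at -35 in Mmp13, -63 in Mmp10, -46 in Mmp3 and -94 in Serpinb2 relative to the transcript start. The ETS motif starts at -109 and -62 in Mmp13 and at -183 in Mmp3, with no overlap between the motifs, and these letters are not in the windows of Mmp10 and Serpinb2. A second window of Serpinb2 overlaps the first and holds the AP-1 motif at -181. The AP-1 motif was not found in the windows of Saa3, Plxnc1, Gzmd, Lcp1 and Cxcr4, whose interactions were also at least 4-fold lower. In 1 of 2 windows of Igfbp2, whose interaction was 4.80, there were 1 AP-1 and 2 ETS motifs. Its other window held neither motif. Nor did the windows of Tnmd, Dio2 and Col8a1, whose interactions were also at least 4-fold higher.

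Over all 32851 promoter windows of the table, 7.81% held TGANTCA, 35.35% AGGAAG and 2.84% both. A window was found for 161 of the 202 genes with an interaction at least 4-fold lower, and of their 201 windows 9.45% held the AP-1 motif, 30.35% the ETS motif and 3.98% both. For the genes at least 4-fold higher, 121 of 152 had a window, and the shares over 156 windows were 8.97%, 32.69% and 4.49%. Over the 9131 windows of kept genes the shares were 5.43%, 32.88% and 1.97%. The longer ETS motif CCGGAAG, on both strands, was in 8.86% of all windows, 17.29% of those of kept genes, 5.97% of those of the lower and 7.05% of those of the higher genes. These shares were not tested against each other, and a match is a description of letters only.

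Mmp9, the gelatinase that cleaves basement membrane collagen, had levels of 6.26, 5.97, 7.74 and 3.60. Its interaction was -3.85, or -2.82 with the PyMT Ets2-null level raised, and -1.26 by its second probe set. Of the 16 kept members of the metalloproteinase list, Mmp13, Mmp9, Mmp10, Mmp3 and the inhibitor Timp1 were at least 2-fold lower and Mmp11 was at least 2-fold higher, where 11.2% and 10.2% of all kept genes passed these limits. Timp1 had levels of 11.59, 11.90, 12.64 and 11.33 and an interaction of -1.62, and Mmp11 (stromelysin-3) 8.05, 7.80, 7.70 and 8.84 and 1.39. The array order of Mmp11 was thus the reverse of that of Timp1 in PyMT fibroblasts. Proteases that fibroblasts make without induction differed less by their brightest probe sets, with Mmp2 (gelatinase A) at -0.90 and the membrane-bound Mmp14 at -0.34. By the second probe set Mmp2 was at -1.38, past 2-fold, and Mmp14 at -0.27. The list median was -0.33 beside 0.04 for all kept genes. In the plasminogen activator list the protease receptor Plaur was at -0.96 and no member but Serpinb2 passed 2-fold, with a list median of 0.42.

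Tslp, an epithelial and stromal cytokine that acts on dendritic cells, had levels of 4.10, 3.75, 8.70 and 3.61 and an interaction of -4.74, or -4.07 with low levels raised. Cxcr4, the receptor of Cxcl12, had levels of 6.63, 5.65, 9.85 and 5.43 and an interaction of -3.43. Plxnc1, a semaphorin receptor, had levels of 6.10, 6.43, 8.38 and 5.09. Its interaction was -3.62 by the brightest and -3.72 by the second probe set. In each of the 3 genes the PyMT Ets2-present array was the highest and the PyMT Ets2-null array the lowest. Clcf1, a cytokine of the interleukin-6 family, had levels of 5.91, 5.71, 7.53 and 4.67 and an interaction of -2.65, but -0.29 by its second probe set. Il11, of the same family and chosen after its values were seen, had levels of 9.24, 9.40, 10.93 and 9.14 and an interaction of -1.95.

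Several granzymes and mast cell proteases also lay lowest on the PyMT Ets2-null array. Gzmd had levels of 6.89, 6.64, 9.08 and 4.64, with an interaction of -4.19 by the brightest and -3.73 by the second probe set. Mcpt8, a basophil protease, had levels of 7.27, 6.09, 8.64 and 4.49 and an interaction of -2.97. Gzme was at -2.65 with levels of 8.54, 7.96, 10.49 and 7.26. Gzmd, Mcpt8 and Gzme were all highest on the PyMT Ets2-present array and lowest on the PyMT Ets2-null array. Among the 7 kept members Gzmk was at 2.39 in the opposite direction, but at 0.52 with low levels raised. Only the normal Ets2-present array was over the filter level for Gzmk. The list median was -0.77 over the 7 kept members, -0.19 with low levels raised and 0.23 over all 18 on the array. The lymphocyte markers were all under the filter level, as were the mast cell markers Kit, Fcer1a, Cpa3 and Tpsb2.

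**Figure D3:**
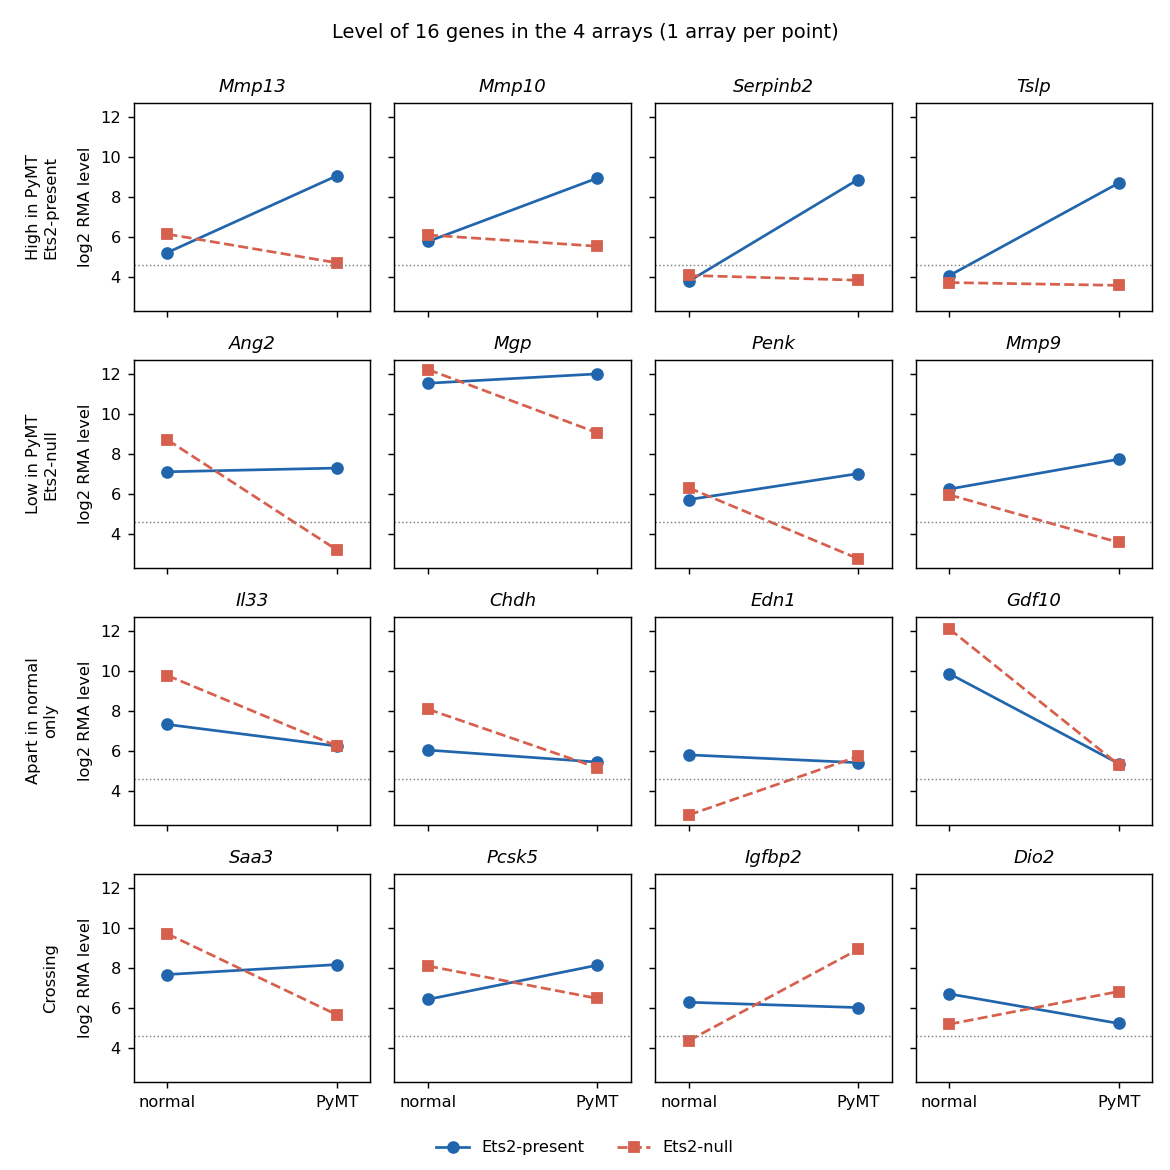
Each panel plots the log2 level of 1 gene on the 4 arrays, by oncogene status on the horizontal axis, with Ets2-present arrays as blue circles and Ets2-null arrays as red squares; the dotted line is the filter level of 4.63. In the top row the PyMT Ets2-present array lies at 8.70 to 9.06, above the other 3; in the second row the PyMT Ets2-null array is lowest; in the third the PyMT arrays lie close together; and in the bottom row the lines cross.

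A second group was set apart by a low PyMT Ets2-null array. Ang2, a ribonuclease of the angiogenin family, had levels of 7.12, 8.71, 7.30 and 3.24, and its interaction of -5.65 was the lowest of all kept genes (-4.26 with the PyMT Ets2-null level raised). Its Ets2 difference was 1.59 in normal and -4.07 in PyMT fibroblasts. Mgp, the matrix Gla protein that inhibits calcification, had levels of 11.53, 12.21, 11.99 and 9.06 and an interaction of -3.61, among the brightest genes that passed 4-fold. Penk, the precursor of enkephalin, had levels of 5.74, 6.32, 7.03 and 2.80, with an interaction of -4.81, or -2.98 with the low level raised. In these 3 genes the Ets2-present arrays and the normal Ets2-null array differed far less from each other than from the PyMT Ets2-null array. Rarres2, the precursor of the chemoattractant chemerin, had levels of 11.51, 12.34, 11.34 and 9.51 and an interaction of -2.65 by the brightest and -2.47 by the second probe set.

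Socs2, an inhibitor of cytokine signalling, had an interaction of -2.15 and Cdt1, a replication licensing factor, of -2.08, with Ets2 differences in normal fibroblasts of 0.12 and 0.00. Both genes were chosen after their values were seen. The second probe set gave -1.40 for Socs2 and -2.18 for Cdt1. In the mitosis and replication list Cdc6, a loader of the replicative helicase, at -2.61 and the helicase subunit Mcm2 at -2.005 were lowest. Mcm2 was at -0.75 by its second probe set. Kif20a at 1.27 and Bub1b at 1.21, which act in mitosis, were highest. The 34 members had a median of -0.07, with 5 at least 2-fold lower and 3 higher, near the 11.2% and 10.2% of all kept genes.

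On the side of higher interactions, Rspo2, a secreted amplifier of Wnt signalling, had levels of 6.90, 6.26, 3.94 and 8.62. It was 25.6-fold higher without Ets2 in PyMT and 1.56-fold lower in normal fibroblasts, and its interaction of 5.32 was the highest of all kept genes (4.63 with the low level raised). The PyMT Ets2-present array was lowest and the PyMT Ets2-null array highest. Dkk2, a Wnt antagonist, had levels of 10.83, 10.16, 6.36 and 8.33 and an interaction of 2.64. Both PyMT arrays were below both normal arrays for Dkk2, the Ets2-null one by less. In the same list Wnt4 at -2.77 and Wnt5b at -2.58 were lowest, but -0.52 and -0.43 with low levels raised. Of the 13 kept Wnt ligands and modulators 3 were at least 2-fold lower and 3 higher, beside 11.2% and 10.2% of all kept genes. The list median was -0.07, and its sign turned when the filter, the floor or the centring was altered.

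Genes of the integrated stress response, which cells raise when amino acids or protein folding are limiting, included several low on the PyMT Ets2-present array. Trib3, an inhibitory pseudokinase, had levels of 7.47, 7.16, 4.90 and 7.42 and an interaction of 2.82, or 1.64 by its second probe set. Chac1, which degrades glutathione, had levels of 8.38, 8.38, 5.68 and 8.10 and an interaction of 2.42. In both, the PyMT Ets2-null array lay near the level of the normal arrays and the PyMT Ets2-present array alone was low. Sesn2, a stress-induced inhibitor of mTORC1, had levels of 6.43, 5.14, 3.96 and 5.69 and an interaction of 3.02, or 1.54 by its second probe set, and Ddit3, the transcription factor CHOP, 7.79, 7.46, 6.67 and 8.64 and 2.30. Of 28 kept members 7 were at least 2-fold higher and 1 lower, beside 10.2% and 11.2% of all kept genes. The lower one was the cystine transporter Slc7a11 at -1.60, and the list median was 0.35. Atf4, the factor that drives the program, was at 0.14 and Asns, asparagine synthetase, at -0.60, both chosen after their values were seen.

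The hypoxia and glycolysis list gave 8 of 34 at least 2-fold higher and 0 lower, with a median of 0.50 and 29 of 34 above 0, where 10.2% and 11.2% of all kept genes passed these limits. Adm, the vasodilator peptide adrenomedullin, had levels of 8.68, 7.75, 7.50 and 9.35 and an interaction of 2.79. Its receptor Calcrl had levels of 6.72, 5.34, 7.65 and 9.21 and an interaction of 2.95. The PyMT Ets2-null array was highest for both, and the Ets2 difference was negative in normal and positive in PyMT fibroblasts. Pdk1, the kinase that restrains pyruvate dehydrogenase, and Pfkl, a phosphofructokinase, were at 2.17 and 2.14, with 1.51 and 1.81 by their second probe sets, and both were chosen after their values were seen. Hexokinases Hk2 at -0.46 and Hk1 at -0.43 (-1.52 by its second probe set) were the lowest members, and the glucose transporter Slc2a1 was at 0.16. Some members that respond to both programs, such as Ddit4 at 1.72, stand in both lists.

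Other genes were high on the PyMT Ets2-null array alone. Tinagl1, a basement membrane protein, had levels of 5.79, 5.47, 5.70 and 8.11 and an interaction of 2.72. Ccnd1, the cyclin of early G1, chosen after its values were seen, had levels of 7.94, 7.60, 7.68 and 10.10, with interactions of 2.76 and 2.29 by its 2 brightest probe sets. Serpinb9b, an inhibitor of granzyme-like proteases, had levels of 6.98, 6.20, 6.84 and 8.73 and an interaction of 2.67. In each of these the other 3 arrays lay together. Serpinb6b of the same chromosome 13 cluster had levels of 6.39, 7.45, 6.62 and 9.84. It was higher without Ets2 in both settings, 2.08-fold in normal and 9.32-fold in PyMT fibroblasts, an interaction of 2.17. Of 6 kept cluster members 2 were at least 2-fold higher and Serpinb1b, at -1.39 (-0.79 raised), was lower, with a median of 0.92. The shares of all kept genes were 10.2% and 11.2%.

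Interferon-stimulated genes had 8 of 25 members at least 2-fold higher and 0 lower, beside 10.2% and 11.2% of all kept genes, and a median of 0.38. Ifit3, an antiviral RNA-binding protein, had levels of 4.20, 4.56, 4.05 and 6.79 and an interaction of 2.38, or 2.155 with low levels raised. Irf1, a transcription factor of the pathway, had levels of 6.41, 6.12, 4.59 and 6.38 and an interaction of 2.08. The first was high on the PyMT Ets2-null array alone and the second low on the PyMT Ets2-present array alone. Stat2 at 1.17, Bst2 at 1.60 and Ifit1 at 1.81 lay on the same side. So did Usp18 at 2.09 and Rtp4 at 1.33, but with low levels raised they were at 0.92 and 0.33. The peptide transporter subunit Tap2 at -0.76 (0.16 with low levels raised) and Irf9 at -0.58 were lowest. The class I genes H2-K1 and H2-D1 were at 0.25 and 0.26.

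In 49 genes (0.564%) the Ets2 difference was at least 4-fold in PyMT and under 0.32 in normal fibroblasts, 26 of them lower and 23 higher. All 4 arrays were over the filter level in 14 of the 49. The reverse, at least 4-fold in normal and under 0.32 in PyMT fibroblasts, held for 12 genes (0.138%), of which 3 were lower and 9 higher without Ets2, and 3 had all arrays over the level. Those 3 were Il33, Gdf10 and Chdh.

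Il33, an alarmin cytokine, had levels of 7.33, 9.77, 6.26 and 6.26. It was 5.41-fold higher without Ets2 in normal fibroblasts and equal in PyMT fibroblasts, an interaction of -2.43. Gdf10, a ligand of the TGF-beta superfamily, had levels of 9.86, 12.09, 5.39 and 5.33 and an interaction of -2.29. Chdh, choline dehydrogenase, had levels of 6.06, 8.09, 5.46 and 5.18 and an interaction of -2.31. In all 3 genes the normal Ets2-null array was highest and the PyMT arrays lay together below the normal Ets2-present level. The adhesion molecule Chl1 (3.98, 6.91, 3.34, 3.02), the secreted protein Egfl6 (6.06, 8.80, 3.06, 3.26) and the circadian transcription factor Hlf (4.74, 6.89, 3.67, 3.52) followed the same order with both PyMT arrays under the filter level. Lum, the proteoglycan lumican, had levels of 9.26, 11.62, 6.73 and 5.82 and an interaction of -3.27, with a difference of -0.91 in PyMT fibroblasts.

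Among genes lower without Ets2 in normal fibroblasts, Edn1, the precursor of endothelin-1, had levels of 5.82, 2.83, 5.43 and 5.74 and an interaction of 3.30, or 1.49 with the low level raised. Tnmd, the membrane protein tenomodulin of tendon cells, had levels of 8.46, 4.25, 5.70 and 6.20 and an interaction of 4.71, or 4.33 raised. For Edn1 the normal Ets2-null array alone was low, and for Tnmd the normal Ets2-present array alone was high. Selp, an adhesion receptor of vessels and platelets (6.17, 4.04, 3.80, 4.04), had an interaction of 2.36, or 1.53 raised.

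The Ets2 difference crossed, with at least 2-fold in each setting and opposite signs, in 80 genes. In 46 (0.53%) the Ets2-null level was the higher one in normal and the lower one in PyMT fibroblasts, and in 34 (0.391%) it was the reverse. All 4 arrays were over the filter level in 11 of the 46 and 11 of the 34, and 17 of each still crossed when low levels were raised. A second kept probe set existed for 8 and 5 of them and had the same pair of signs in 4 and 3.

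Saa3, an acute-phase serum amyloid that fibroblasts and macrophages make, had levels of 7.68, 9.70, 8.17 and 5.68. Without Ets2 it was 4.06-fold higher in normal and 5.62-fold lower in PyMT fibroblasts, an interaction of -4.51. Slpi, an inhibitor of leukocyte proteases, had levels of 8.54, 10.20, 7.45 and 5.74 and an interaction of -3.37. Pcsk5, a proprotein convertase, had levels of 6.44, 8.10, 8.14 and 6.48, with differences of 1.66 and -1.66. Its second probe set gave 1.66 and -0.19, so the crossing in Pcsk5 rests on the brightest probe set. In Saa3 and Slpi the normal Ets2-null array was highest and the PyMT Ets2-null array lowest, while in Pcsk5 the arrays fell into 2 pairs. Tent5c, a poly(A) polymerase, had levels of 5.34, 6.96, 6.63 and 4.81 and an interaction of -3.42, and Igfbp3, a binding protein of insulin-like growth factors, 8.06, 9.32, 7.12 and 5.85 and -2.53.

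Several of the other crossing genes in this direction had levels near the filter. Prg4, the joint lubricant lubricin (5.08, 6.74, 6.25, 3.93), was at -3.98 and -3.28 raised, and Flt4, a VEGF receptor (5.50, 7.22, 5.57, 3.95), at -3.34 and -2.66 raised, with -3.22 by its second probe set. Fxyd1, a regulator of the sodium pump, was at -3.77 and -2.70 raised. Bace2, an aspartyl protease, was at -3.67 but -1.48 raised, Scin, an actin-severing protein, at -3.63 but -0.90, and the epithelial transcription factor Grhl2 at -3.43 but -0.27, with 2.34 by its second probe set.

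Of the acute-phase and complement list 6 of 9 kept members were at least 2-fold lower in the interaction and 0 higher, beside 11.2% and 10.2% of all kept genes. The list median was -1.22, or -0.42 where no filter was used. Besides Saa3 these were Saa1 (-1.67, but -0.48 raised), C1s1 (-1.30), C1ra (-1.22), C2 (-1.22) and C1qb (-1.17). C1s1, a protease of the classical complement pathway, had levels of 8.95, 9.77, 8.39 and 7.92, so it was highest on the normal Ets2-null and lowest on the PyMT Ets2-null array. The pentraxin Ptx3 was at -0.38 and the complement inhibitor Serping1 at 0.12. Lbp, which presents bacterial lipopolysaccharide and is outside the list, crossed in the same direction with levels of 5.82, 7.48, 4.997 and 3.53 and an interaction of -3.13, or -2.02 raised, and was chosen after its values were seen.

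Among genes crossing the other way, Igfbp2, a binding protein of insulin-like growth factors, had levels of 6.29, 4.38, 6.03 and 8.92. Without Ets2 it was 3.76-fold lower in normal and 7.42-fold higher in PyMT fibroblasts, an interaction of 4.80. Igfbp2 thus ran opposite to Igfbp3. Of 13 kept members of the IGF system 3 were at least 2-fold higher (Igfbp2, Igf2 at 1.53, or 0.52 raised, and its receptor Igf2r at 1.06). Only Igfbp3 was lower, and the median was 0.14. The shares of all kept genes were 10.2% higher and 11.2% lower. The growth factor Igf1 was at 0.07.

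Dio2, which activates thyroid hormone, had levels of 6.71, 5.20, 5.24 and 6.83 and an interaction of 3.09. Col8a1, a short-chain collagen of vessel walls, had levels of 9.19, 7.37, 8.67 and 9.91, with interactions of 3.06 and 2.23 by its 2 brightest probe sets. Etfbkmt, a lysine methyltransferase of mitochondria, had levels of 5.90, 4.51, 5.50 and 7.51 and an interaction of 3.39. In Dio2 the arrays fell into pairs, and in Col8a1 and Etfbkmt the PyMT Ets2-null array was highest and the normal Ets2-null array lowest. Aldh1a7, an aldehyde dehydrogenase (6.37, 4.89, 4.18, 6.14), was at 3.44. The developmental factor Eya4 (3.35, 2.17 raised), the flavin monooxygenase Fmo5 (3.11, 2.15 raised), the mitochondrial carbonic anhydrase Car5b (3.31, 1.18 raised) and the thioesterase Acot4 (2.85, 0.26 raised) rested on levels under the filter. Adamts5, an aggrecan-cleaving protease, had levels of 8.60, 7.35, 9.25 and 10.77 and interactions of 2.77 and 2.21 by its 2 brightest probe sets, and Mcam, a cell adhesion molecule, had levels of 6.17, 5.16, 7.12 and 8.90 and an interaction of 2.80. Both were chosen after their values were seen.

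For contrast, 3 genes (0.0345%) were at least 4-fold apart with the same sign in both settings. S100a3, a calcium-binding protein, had levels of 3.14, 7.40, 3.19 and 7.90, and its interaction was 0.45. Serpinb1a, an inhibitor of neutrophil proteases, had levels of 6.18, 8.34, 5.12 and 8.26 and an interaction of 0.98. Ctnnd2, a catenin of cell junctions, had levels of 6.20, 3.74, 6.99 and 4.55 and an interaction of 0.02. In these the Ets2-null arrays lay on 1 side and the Ets2-present arrays on the other, whatever the oncogene status.

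Chemokines and cytokines divided. Of 25 kept members 9 were at least 2-fold lower and 7 higher, beside 11.2% and 10.2% of all kept genes. The list median of -0.58 turned to 0.12 when probe sets of a gene were averaged. Cxcl12, the ligand of Cxcr4, had levels of 9.20, 10.30, 7.33 and 5.80 and an interaction of -2.64, though -0.53 by its second probe set. Ccl8, which attracts monocytes, had levels of 9.87, 10.87, 10.86 and 9.71 and an interaction of -2.15. In both the normal Ets2-null array was highest and the PyMT Ets2-null array lowest. On the other side Ccl9 had levels of 9.11, 8.31, 8.84 and 10.58 and an interaction of 2.54, with 1.19 by its second probe set. The neighbouring monocyte chemokines Ccl2 and Ccl7 were at 1.48 and 1.17, and Cxcl1, which attracts neutrophils, at 1.46. Il1rn, the interleukin-1 receptor antagonist, was at 1.64, with 1.98 by its second probe set. Cxcl12, Ccl8, Ccl2, Ccl7 and Cxcl1 were chosen after their values were seen.

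Of 17 kept macrophage markers 12 had an interaction below 0 and 5 above, with a median of -0.30. At least 2-fold lower were 7 and higher 0, beside 11.2% and 10.2% of all kept genes. The receptor Csf1r had levels of 6.95, 6.54, 8.12 and 6.19 and an interaction of -1.51, with -1.84 by its second probe set, and Adgre1, the F4/80 antigen, 4.45, 4.27, 6.17 and 4.52 and -1.47. Lcp1, the actin-bundling plastin of leukocytes, was at -3.44 by its brightest probe set (5.96, 6.24, 8.04, 4.88) and at 0.76 by its second. The lysozymes Lyz2 and Lyz1 were at 0.24 and -0.06 and the tetraspanin Cd53 at 0.18, while Itgam, Fcgr1 and Spi1 were under the filter level. The part of macrophage RNA in the interactions of Mmp9, Saa3, Tslp and the other genes above was not tested. Of 5 kept epithelial markers 3 were at least 2-fold higher, among them Epcam (4.15, 4.07, 3.67, 5.10), with a median of 1.50 that was 0.22 with low levels raised.

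TGF-beta ligands and response genes had 20 of 24 members below 0 and a median of -0.60, beside 0.04 for all kept genes. At least 2-fold lower were 8 and higher 3, beside 11.2% and 10.2% of all kept genes. The cytokine Tgfb1 had levels of 4.60, 4.15, 5.71 and 3.07 and an interaction of -2.19, or -1.08 raised. Id2, an inhibitor of helix-loop-helix factors, had levels of 9.27, 9.64, 10.11 and 8.40 and an interaction of -2.08, with -1.43 by its second probe set. The pseudoreceptor Bambi was at -2.04 and the BMP antagonist Grem1 at -1.82. In the last 3 the PyMT Ets2-null array alone was low. The co-receptor Eng at 1.82 (0.70 raised and -0.42 by its second probe set) and the activin antagonist Fst at 1.31 were highest. Id2, Bambi and Grem1 were chosen after their values were seen.

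Of 26 secreted angiogenic factors 7 were at least 2-fold lower and 9 higher, beside 11.2% and 10.2% of all kept genes. The sign of their median, -0.02, depended on the filter and centring. Ang2 at -5.65 and the growth factor Mdk at -1.80 were lowest, and Vegfc was at -1.77. Edn1, Adm and Hgf at 2.60 were highest, and Vegfa was at 0.68. Hgf, the ligand of Met, had levels of 6.78, 5.86, 5.92 and 7.60, high on the normal Ets2-present and PyMT Ets2-null arrays, and 1.81 by its second probe set. Vegfc, Vegfa and Hgf were chosen after their values were seen.

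Of the matrix genes, 5 of 22 kept collagens were at least 2-fold lower and 3 higher, beside 11.2% and 10.2% of all kept genes. The collagen median was 0.38. Col5a3 had levels of 5.44, 5.05, 7.13 and 4.51 and an interaction of -2.23, and Col4a6 4.58, 4.55, 3.99 and 6.46 and 2.50. The collagens that make the bulk of fibroblast matrix lay near the median, with Col1a1 at 0.39, Col1a2 at 0.36 and Col3a1 at 0.25. The tendon and cartilage list had 5 of 12 at least 2-fold lower and 5 higher, beside the same 11.2% and 10.2%. Fmod, the collagen-binding proteoglycan fibromodulin, had levels of 10.95, 11.86, 11.68 and 10.52 and an interaction of -2.07, with -2.15 by its second probe set. Omd, a related proteoglycan, had levels of 5.12, 5.62, 3.58 and 6.24 and an interaction of 2.15, or 1.10 raised. Related proteoglycans thus lay on opposite sides.

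The retinoid and aldehyde dehydrogenase list had 4 of 17 at least 2-fold lower and 3 higher, beside 11.2% and 10.2% of all kept genes, and a median of 0.01. Besides Rarres2, the retinol dehydrogenase Rdh12 (3.98, 6.55, 5.41, 5.07) was at -2.91, and besides Aldh1a7, the retinaldehyde dehydrogenase Aldh1a2 (6.77, 5.42, 7.45, 7.84) was at 1.75. Cholesterol synthesis genes had a median of -0.52, with 3 of 19 at least 2-fold lower, of which the kinase Mvk at -1.52 and Hsd17b7 at -1.20 were lowest, though -0.26 and 1.51 by their second probe sets. Immediate-early and MAPK feedback genes had a median of 0.27 over 21. Spry1, a feedback inhibitor of the pathway, had levels of 7.24, 6.31, 6.62 and 7.69 and an interaction of 2.00. Fosl1, an AP-1 subunit, had levels of 6.73, 6.36, 7.69 and 5.86 and an interaction of -1.46. The AP-1 subunit and the feedback inhibitor had opposite array orders in PyMT fibroblasts.

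Within the ETS family, 0 of 16 kept members were at least 2-fold lower and 2 higher, beside 11.2% and 10.2% of all kept genes. Fli1 had levels of 7.92, 6.96, 7.27 and 7.86 and an interaction of 1.56, and Etv4 4.65, 3.16, 3.23 and 2.98 and 1.25, or 0.02 raised. Ets1, the closest relative of Ets2, was at 0.00 by the brightest probe set and 1.91 by the second. As a reference, 41 kept cytosolic ribosomal protein genes had a median of -0.16, 1 at least 2-fold lower (Rpl12, -1.16) and 0 higher.

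**Figure D4:**
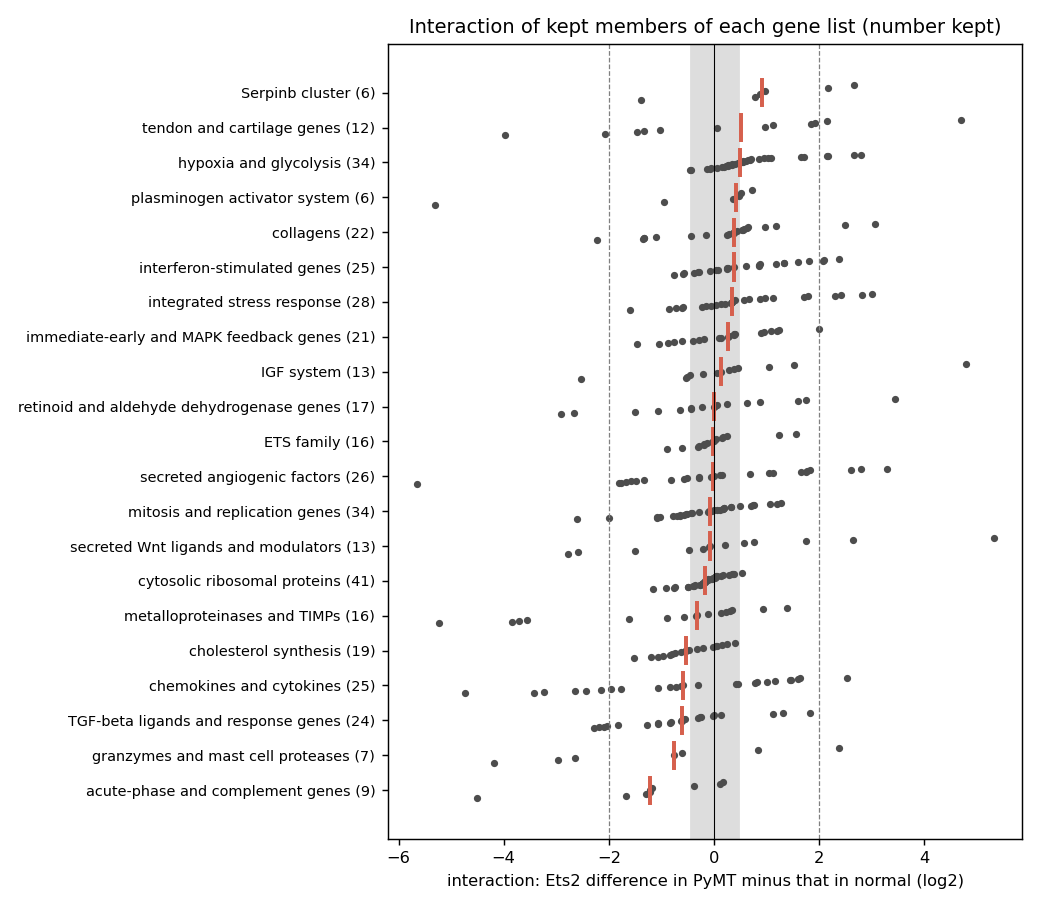
Each dot is the interaction (log2) of 1 kept gene of a list, with the number kept after the list's name; the red bar is the list's median, the grey band the middle of all kept genes from -0.43 to 0.48 and the dashed lines 4-fold. Medians run from -1.22 for the acute-phase and complement genes to 0.92 for the Serpinb cluster, and most lists hold genes on both sides of 0.

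A gene with several probe sets gives more than 1 reading of the same 4 RNA samples. In 3378 genes with 2 kept probe sets the interactions of the brightest and the second disagreed with an SD of 0.86. Of 40 such genes at least 4-fold lower, the second probe set had the same sign in 35, was at least 2-fold lower in 23 and at least 4-fold lower in 11. Of 20 at least 4-fold higher these counts were 18, 15 and 6. The median second interaction was -1.34 for the former and 1.72 for the latter. Genes with close readings included Gzmd, Plxnc1, Flt4, Rarres2, Fmod, Cdt1, Meox2 (2.80 and 2.63) and Ccnd1, and those with opposite readings Lcp1, Grhl2 and Clec14a (2.48 and -1.54). Probe sets of a gene can detect different transcript ends, and their agreement says nothing of the spread between animals.

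**Figure D5:**
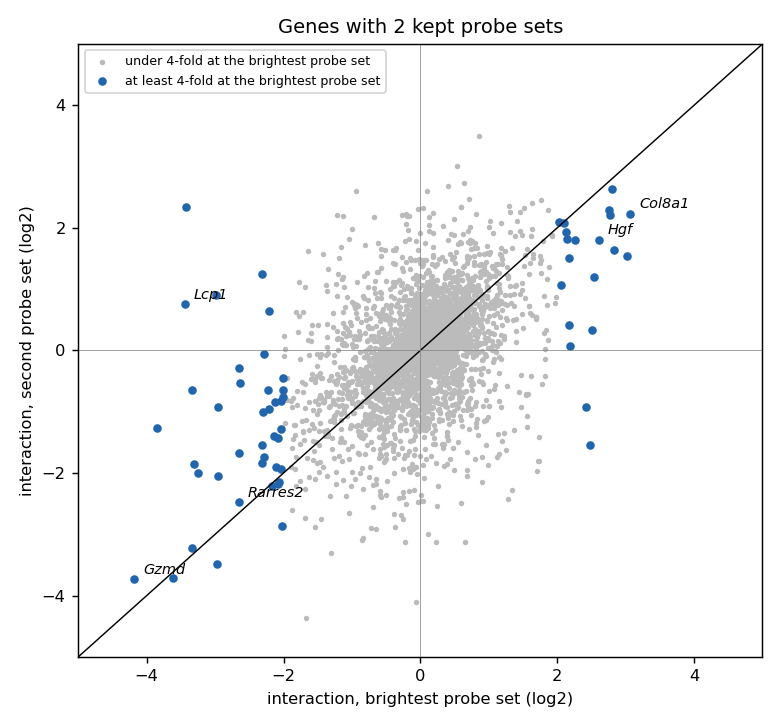
Each point is 1 of 3378 genes with 2 kept probe sets, with the interaction (log2) of the brightest probe set on the horizontal and of the second on the vertical axis; the line marks equal values and blue points are genes at least 4-fold at the brightest. Of the blue points 35 of 40 on the left and 18 of 20 on the right have the same sign on both axes.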

How the data were processed

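RNA of 4 fibroblast cultures was measured on Affymetrix arrays. The deposited table holds log2 levels of 22690 probe sets, made by the authors with RMA (version not given). RMA corrects background, normalizes between arrays and summarizes probes. Which arrays were normalized together is not stated, and scanner files were not used here. Groups were taken from the sample titles and genotypes. The platform table named 1 gene for 20393 probe sets, several for 691 and none for 1606, and 20364 matched the RefSeq gene table by Entrez ID.

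Of several probe sets for a gene, the brightest over the 4 arrays was used. Genes whose highest level reached the 40th percentile of the table were kept, and the Ets2 differences and interaction were computed with Python 3.11.15, numpy 2.4.6 and pandas 2.3.3. No test was made, since each group has 1 array. As alternatives, no filter, the 60th percentile, low levels raised to the 40th percentile, cyclic loess, quantile normalization (limma 3.58.1, R 4.3.3), centring on array medians and the mean over probe sets were used. The arithmetic was tested on simulated data.

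Genes were named by rule: Ets2, the 10 lowest and 10 highest interactions with and without raised levels, the 10 clearest crossing genes each way, the 8 lowest and 8 highest genes apart in PyMT alone, all apart in normal alone or in both, the genes the study tested by RT-PCR, and the 2 lowest and 2 highest of each list, with all members of 4 lists open to naming. Others are said to be chosen after their values were seen. The members, lists and rules were chosen with earlier results of these data known.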

Additional observations from a re-analysis of the deposited data

Results flagged for a closer look

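The Ets2 difference ran in opposite directions with and without the oncogene in the 20 genes named as the clearest crossings, which is why each is listed here. Each direction rests on 1 array per group, and the difference between the settings was not tested. Without Ets2, those with a higher level in normal but a lower level in PyMT fibroblasts were Saa3 (interaction -4.51), Prg4 (-3.98), Fxyd1 (-3.77), Bace2 (-3.67), Scin (-3.63), Grhl2 (-3.43), Tent5c (-3.42), Slpi (-3.37), Flt4 (-3.34) and Pcsk5 (-3.31). The reverse held for Igfbp2 (4.80), Aldh1a7 (3.44), Etfbkmt (3.39), Eya4 (3.35), Car5b (3.31), Fmo5 (3.11), Dio2 (3.09), Sesn2 (3.02), Calcrl (2.95) and Acot4 (2.85). With all 4 arrays over the filter level were Saa3, Slpi, Pcsk5, Tent5c, Dio2 and Calcrl. By its second probe set Sesn2 did not cross, with Ets2 differences of 0.05 in normal and 1.59 in PyMT fibroblasts. Nor did Pcsk5 at the 2-fold limit, with 1.66 and -0.19. The second probe set of Grhl2 gave -0.18 and 2.16, the reverse of its listed direction. That of Flt4 gave 0.72 and -2.50, so the normal difference was under 2-fold.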

How the results depend on the processing

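No paired analysis was possible because each group has 1 array, and no array could be left out for the same reason. The limits were the single arrays and the dim genes. With the filter at the 60th percentile, 91 genes were at least 4-fold lower and 46 higher, 485 and 340 at least 2-fold, and 17 and 11 crossed. With low levels raised, 110 were at least 4-fold lower and 64 higher, 580 at least 2-fold higher, and 17 and 17 crossed. Without a filter 1495 were at least 2-fold higher, and with probe sets averaged 22 crossed from lower in normal to higher in PyMT, where 34 did otherwise. Hsd17b7 turned from -1.20 to 0.16 with probe sets averaged, and no other named gene whose interaction was at least 2-fold changed sign under these alternatives. The other counts stayed within 1.5 times. List medians changed sign for granzymes (-0.77 to 0.23) and tendon genes (0.51 to -0.16) without a filter, for chemokines with probe sets averaged, and for the angiogenic, Wnt, retinoid, ETS and mitosis lists, whose medians were near 0. The counts at least 4-fold lower and higher were 228 and 125 after cyclic loess, 231 and 145 after quantile normalization and 174 and 178 after centring on array medians. The cause of these shifts was not tested, other than that the 60th percentile compares fewer genes.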

Other observations

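Of 1244 kept probe sets with several genes or no gene listed, the interaction passed 4-fold in 50, 25 in each direction, with values from -3.45 to 3.51. Among the 64 control probe sets, 7 were at least 2-fold higher and 1 lower, from -2.27 to 2.77, and the highest was the 3′ probe set of 18S ribosomal RNA, with levels of 6.75, 6.44, 6.59 and 9.05.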
